A study of Homo sapiens with 3 samples.

Results

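The sodium channel genes SCN10A, SCN11A, SCN2B, SCN3B and SCN4B were followed in promoter capture Hi-C (PCHi-C) calls of hESC-CMs, cardiomyocytes differentiated from human embryonic stem cells. A promoter fragment of a member was a HindIII fragment listed first in at least 1 interaction of a replicate and holding an annotated transcript start of the gene, and every interaction with such a fragment on either side was taken. Of the 5 genes, 4 had a promoter fragment, with 5 fragments in all of the 19075 promoter fragments in the calls. These 5 fragments took part in 20 of the 200809 interactions found in the union of the 3 replicates.

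Voltage-gated sodium channels carry the fast inward current of the action potential upstroke. A channel has a large pore-forming alpha subunit, and small single-pass beta subunits associate with it and change its gating and its amount at the membrane. SCN10A and SCN11A encode alpha subunits best known from the sensory neurons that signal pain, and variants near SCN10A have been associated with cardiac conduction. SCN2B, SCN3B and SCN4B encode beta subunits, all of which have been studied in inherited arrhythmia.

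The study asked which distal regions contact promoters in human cardiomyocytes. It ran PCHi-C, in which crosslinked DNA is cut with HindIII, ligated and enriched for fragments with promoters, on 3 biological replicates of a single condition. The hESC-CMs came from the WA09 (H9) line at passage 32 by kit differentiation and lactate enrichment, with no genetic change or further treatment named in the labels, and their stated purity was at least 80 to 90% by flow cytometry and qPCR for MYH7 and TNNT2. They stand for 1 line cultured as monolayers, and without expression values the cell type was not checked against its markers here.

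The replicates listed 112473, 109731 and 110740 interactions, and no read counts were used. Each interaction has a CHiCAGO score, which rises with the excess of read pairs over a background for distance and technical noise. The lowest score listed was 5 in each replicate, so a contact missing from a replicate scored lower and was not shown to be absent. There was no second condition, so differences are described against the spread between replicates and without a test between groups.

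A few of the sequences involved are shown first, from contacts called in at most 2 replicates each. The SCN2B promoter is shown because all partners of its fragment were shared with a neighbouring gene, as the 300 bases before the most upstream annotated start in the fragment, on the coding (minus) strand of GRCh37. The 179-base fragment in a KMT2A intron is shown whole because the promoter fragments of SCN2B and SCN4B were both called with it, and the central 300 bases of a fragment in an EXOG intron because the SCN11A promoter fragment inside the gene was called with it in 2 replicates. Both intronic sequences are on the plus strand. Capitals mark matches, on either strand, to 1 of 4 short motifs: AGGGGGC from the core of the CTCF site, the T-box site AGGTGTGA, the GATA site AGATAA and the MEF2 core TAAAAATA. None of the 4 contains another. All 3 sequences printed hold a match, which most windows examined did not. No match was found in 13 of the 17 partner windows of at most 300 bases, those of the contacts called in all 3 replicates included, and in 3 of the 5 promoter windows.
SCN2B promoter, chr11:118047355-118047654: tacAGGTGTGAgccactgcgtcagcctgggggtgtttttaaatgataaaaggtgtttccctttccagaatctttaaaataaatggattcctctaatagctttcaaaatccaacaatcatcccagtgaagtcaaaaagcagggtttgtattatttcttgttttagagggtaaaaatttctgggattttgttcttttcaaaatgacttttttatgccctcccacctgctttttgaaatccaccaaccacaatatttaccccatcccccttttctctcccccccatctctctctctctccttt
KMT2A intron, chr11:118361534-118361712: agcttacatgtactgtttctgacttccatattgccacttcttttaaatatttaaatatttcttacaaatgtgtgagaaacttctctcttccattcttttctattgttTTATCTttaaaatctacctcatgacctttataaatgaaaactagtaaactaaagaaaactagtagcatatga
EXOG intron, chr3:38550368-38550667: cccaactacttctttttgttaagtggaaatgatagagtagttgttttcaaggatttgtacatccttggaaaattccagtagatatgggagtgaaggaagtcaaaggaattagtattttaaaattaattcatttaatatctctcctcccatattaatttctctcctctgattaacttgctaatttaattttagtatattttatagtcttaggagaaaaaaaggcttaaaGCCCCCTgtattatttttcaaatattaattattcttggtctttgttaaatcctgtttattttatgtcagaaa

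The SCN2B window had 39.3% GC and 1 T-box match near its 5′ end, a match that 0.980% of 35116 RefSeq promoter windows of the same length held on GRCh38 (250 bases before to 50 after a start). The 179-base fragment held 1 GATA match, on the minus strand, as did 16.9% of 3028 listed fragments of like length (within 20%). The EXOG intron fragment held 1 AGGGGGC match, on the minus strand, as did 12.8% of 16285 fragments of like length. Outside the printed stretch it held 2 TAAAAATA matches, and 47.9% of those fragments held at least 1. The median GC content of the RefSeq windows was 58.7%, above that of the SCN2B window. Such matches are letters in a window and not evidence of binding, and a motif without a match says nothing on the factor.

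Few contacts of the sodium channel promoters recurred, at a share not set apart from that of all interactions. Of the 20 interactions, 3 were called in all 3 replicates (15.0%, 95% Wilson interval 5.24 to 36.0), 3 in 2 replicates and 14 in 1 replicate. Over all interactions in the union 23.9% were called in all 3 replicates, which lies inside that interval. The interval covers counting error only. The 3 recurrent contacts joined SCN4B to the promoter fragment of TTC36 and the internal SCN11A fragment to 2 fragments at EXOG. An interaction in all 3 replicates was found for 2 of the 5 sodium channel fragments, against 51.8% of all promoter fragments. When a call within 5 kb on the partner side counted as the same contact, 35.0% of the 20 were called in all 3 replicates. The share over all interactions was not measured with this matching, so the 23.9% is no comparison for it.

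The replicates contributed unequally. Replicate 1 called 7 of the interactions, replicate 2 called 14 and replicate 3 called 8 (mean 9.67 ± 3.79, SD, n = 3). Replicate 2 had the fewest interactions over the whole genome and the most at these promoters, where 10 were called in replicate 2 alone, 3 in replicate 3 alone and 1 in replicate 1 alone. Without replicate 2 the union held 10 interactions, of which 50% were called in both of the others. Neither this share nor the counts called in 1 replicate alone were measured over all interactions, so neither has a background beside it. The calls on the merged replicates listed 13 interactions of the 5 fragments. They held all 6 of those called in 2 or 3 replicates, 2 of the 14 called in 1 replicate and 5 that no single replicate had listed.

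The 29 scores ran from 5.03 to 9.13 with a median of 6.42, while the median of all 332944 scores in the 3 replicates was 6.64, and 22.4% of those were above 9.13. All 20 contacts lay on the chromosome of the promoter, at a median distance of 513 kb against 716 kb for all interactions within a chromosome. Within 1 Mb there were 16, from 226 to 998 kb, with a median distance of 379 kb between fragment midpoints against 358 kb for all interactions of that range. Of these 16, 3 (18.75%, 6.59 to 43.0) were called in all 3 replicates, against 33.8% of all interactions within 1 Mb. The other 4 spanned more than 20 Mb and belonged to SCN3B. The share of all interactions over 20 Mb was not measured. Among the 20, 7 (35.0%) joined a pair of promoter fragments, against 9.69% of all interactions, and 11 (55.0%) had a partner over an annotated exon, against 36.0%. These shares are not on equal terms, because a promoter pair could enter here from either end and counts once among all interactions. Where the member was listed second, as in most of the 7 pairs, its partner was a promoter fragment by definition. Each of those partners also lay over an exon. Neither difference is read as a trait of these promoters.

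The fragments had fewer partners than most promoters or close to the middle. Over all promoter fragments the median was 6 partners, with quartiles of 3 and 14. The internal SCN11A fragment had 7, more than 50.1% of promoter fragments, SCN3B had 5, SCN4B had 4, SCN2B had 3 and the fragment at the 5′ end of SCN11A had 1. By the mean per replicate the order was the internal SCN11A fragment (4.00 ± 1.73, SD, n = 3), SCN4B (2.33 ± 0.577), SCN3B (1.67 ± 0.577), SCN2B (1.33 ± 1.53) and the 5′ SCN11A fragment (0.333 ± 0.577). The replicate ranges of neighbours in this order met or overlapped.

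**Figure D1:**
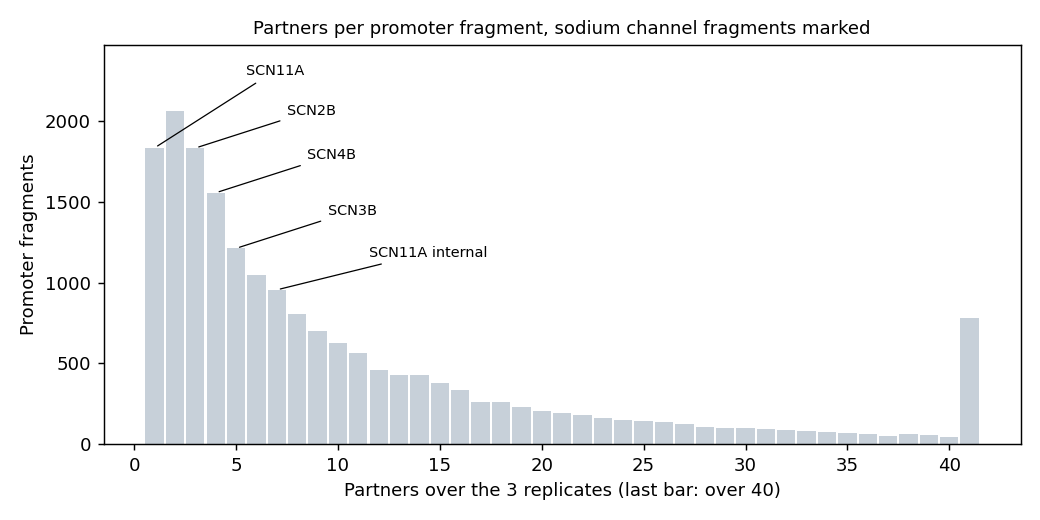
Number of promoter fragments (y axis) by the number of different partners each had over the 3 replicates (x axis), with the 5 sodium channel fragments marked. All 5 lie at or below 7 partners, while the last bar holds the 780 promoter fragments with more than 40.

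SCN10A had no promoter fragment. The gene spans chr3:38738293-38857777 on the minus strand, and its 3 annotated starts fall in HindIII fragments of 7627 bp (chr3:38829085-38836711) and 6843 bp (chr3:38851992-38858834). Neither fragment was listed on either side of an interaction in any replicate or in the merged calls, and whether either was captured is not given in the sources used here. As a contacted region SCN10A was also nearly empty. The promoter fragment of MEOX1, a homeobox gene on chromosome 17, was called with an exonic fragment of SCN10A in replicate 3 alone (score 8.68). The promoter fragment of PLCD1, a phospholipase C gene, was called with an intronic fragment of 515 bp (chr3:38841385-38841899), 771 kb away, in replicate 2 alone, with a score of 13.62, and scored 6.23 on the merged replicates. That intronic fragment is itself the promoter fragment of the non-coding gene AC116038.2, and it had 6 partners, each called in 1 replicate.

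The 2 promoter fragments of SCN11A, the other alpha subunit gene, had contacts that led mostly to EXOG. The gene spans chr3:38887255-39093648 on the minus strand and has 8 annotated starts. The 5′ fragment (chr3:39092034-39098027) holds 5 of them together with the start of WDR48, so its contacts cannot be assigned to either gene. A second fragment inside SCN11A (chr3:39063942-39074024, 10083 bp) holds 1 start, from a transcript without a defined coding sequence, and the start of the small RNA gene RNU6-1227P. The contacts of this internal fragment likewise cannot be assigned to either gene. It had 7 of the 8 interactions, and the 5′ fragment, which holds the coding starts, had 1. All 8 interactions of the 2 fragments ran to lower coordinates, downstream of the starts and past SCN10A, and 5 of the 8 had a partner over EXOG, which encodes a mitochondrial nuclease.

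The internal fragment was called with the EXOG promoter fragment (chr3:38534164-38542521), 531 kb away, at scores of 7.02 in replicate 1, 6.97 in replicate 2 and 6.42 in replicate 3. These 3 scores lay close together (mean 6.80 ± 0.333, SD, n = 3), and the merged replicates scored 8.99. It was also called with a 592 bp fragment over an EXOG exon (chr3:38560486-38561077), 508 kb away, at 6.41, 7.12 and 5.03 in replicates 1 to 3. Here replicate 3 was near the lowest listed score (mean 6.19 ± 1.06, SD, n = 3; merged 9.22). The difference between the means of the 2 contacts was smaller than the larger SD.

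Adjacent intronic fragments of EXOG took turns between replicates. The fragment chr3:38549713-38551323, whose centre is printed above, was called with the internal SCN11A fragment in replicate 1 (6.36) and replicate 3 (5.72) and not in replicate 2. The next fragment, chr3:38551324-38552139, was called in replicate 2 alone (6.47). Both were listed on the merged replicates, at 7.96 and 7.59. The 5′ SCN11A fragment had a single contact, with an EXOG exon fragment (chr3:38555252-38556128) 539 kb away, called in replicate 3 alone at 5.06. On the merged replicates that EXOG fragment was called with the internal fragment instead (6.00), as was a further EXOG fragment (5.11).

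The remaining contacts of the internal fragment were called in replicate 2 alone. One joined it to the promoter fragment of ACVR2B, an activin receptor gene, 577 kb away (8.56), and one to the promoter fragment of PLCD1, 998 kb away (8.47). These were the 2 highest scores of either SCN11A fragment in a single replicate, yet neither contact was listed on the merged replicates. A further promoter fragment was called at 5.94 and is not described here. A promoter fragment not described here shared 5 of the 7 partners of the internal fragment, more than any other. Of the rest, EXOG, PLCD1 and OXSR1, a stress-response kinase gene, each shared 2, which made up 8.0%, 13.3% and 33.3% of their own 25, 15 and 6 partners.

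Seen from the other side, fragments that overlap SCN11A, its promoter fragments aside, were contacted 14 times by promoter fragments of other genes. Of these interactions, 12 came from EXOG. The highest of these joined the EXOG promoter fragment to chr3:38886103-38887274 at the 3′ end of SCN11A, 348 kb away, at 9.24, 10.90 and 11.34 in replicates 1 to 3 (mean 10.5 ± 1.11, SD, n = 3). All 3 values were above every score of the SCN11A promoter fragments themselves. The gene ends at position 38887255, so nearly all of that contacted fragment lies beyond its 3′ end. A 166 bp fragment nearby (chr3:38890869-38891034) was called at 7.27, 5.00 and 9.21. The third contact present in every replicate, with the intronic fragment chr3:39062797-39063301, scored 9.45, 5.63 and 7.30. It belonged to a run of 5 consecutive fragments (chr3:39056972-39063941, 6970 bp) that were all called with EXOG in at least 1 replicate and that end where the internal promoter fragment begins. The remaining EXOG calls in SCN11A were in 1 or 2 replicates each and scored between 5.07 and 8.05.

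**Figure D2:**
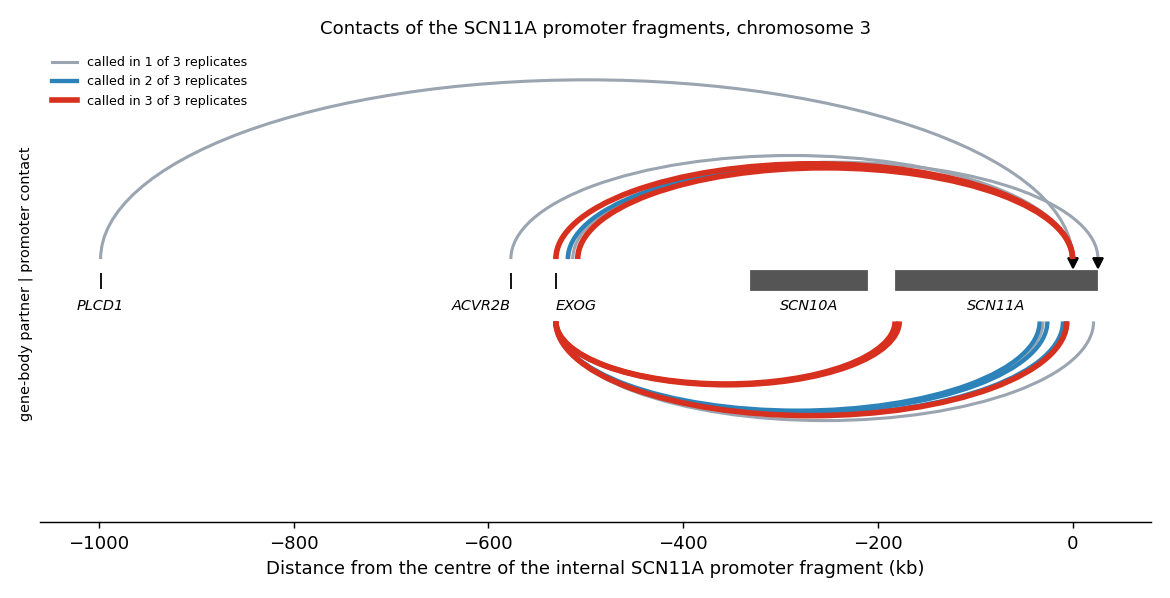
Arcs above the line join the SCN11A promoter fragments (triangles) to their partners, and arcs below join other promoter fragments to fragments that overlap SCN11A, by distance in kb from the internal promoter fragment, with colour and width for the number of replicates. Arc height follows distance and is not a measurement. The red arcs, called in 3 of 3 replicates, all have a foot at EXOG, and 1 promoter fragment named nowhere in the text is left out.

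SCN4B and SCN2B lie side by side on the minus strand of chromosome 11, and their promoter fragments had nearly the same partners. SCN4B spans chr11:118004092-118023603 and its promoter fragment chr11:118019282-118033917, which also takes in the 3′ end of SCN2B. SCN2B spans chr11:118033521-118047354 with the promoter fragment chr11:118047283-118052484. All 3 partners of SCN2B were among the 4 of SCN4B (100% of the first list and 75.0% of the second). The overlap usual for neighbouring promoter fragments was not measured, so it is not read as a trait of this pair. All 7 interactions ran upstream, to higher coordinates, and 6 of the 7 had a partner over KMT2A, a histone methyltransferase gene, or TTC36, which encodes a small protein with tetratricopeptide repeats.

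The contact with the TTC36 promoter fragment (chr11:118397556-118398588, 1033 bp) had the highest scores of the pair. With SCN4B, 371 kb away, it was called at 7.57 in replicate 1, 6.56 in replicate 2 and 7.56 in replicate 3 (mean 7.23 ± 0.580, SD, n = 3), and at 10.81 on the merged replicates. With SCN2B, 348 kb away, it was called at 6.61 in replicate 1 and 6.04 in replicate 2 and was not listed in replicate 3, while the merged replicates gave 8.09. In both replicates that listed both contacts, the SCN4B score was the higher. There are 10 protein-coding genes between the SCN genes and TTC36, among them CD3D, CD3E and CD3G of the T-cell receptor complex and KMT2A, and in no replicate was a promoter fragment of these genes called with that of SCN4B or SCN2B.

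The KMT2A contacts were near the lowest listed score and moved between replicates. The 179-base intronic fragment printed above was called with SCN4B in replicate 1 (5.21) and replicate 3 (5.08), 335 kb away, and with SCN2B in replicate 2 alone (5.79), 312 kb away. Its neighbour chr11:118361713-118363988, which holds a KMT2A exon and an annotated KMT2A start but was no promoter fragment in the calls, was called in replicate 2 alone with SCN4B (5.21) and with SCN2B (5.14). Every replicate thus had a call between one of the 2 promoters and this pair of adjacent fragments, and no single fragment pair was called in all 3. Taking promoters and fragments together in this way was not done elsewhere, so it has no background and is not counted as recurrence. On the merged replicates the 179-base fragment was listed with SCN4B (6.22) and with SCN2B (5.02). The remaining contact of SCN4B, with a fragment of 378 bp in an intron of UBE4A, a ubiquitin ligase gene, 226 kb away, was called in replicate 2 alone at 5.03.

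Other promoters also shared these partners. Each of the KMT2A fragments was called with 3 promoter fragments in all, and the third besides SCN4B and SCN2B was that of ATP5MG, a subunit gene of the mitochondrial ATP synthase. ATP5MG thereby shared 2 of its 4 partners with each of the SCN genes, 50% of the partners of SCN4B and 66.7% of those of SCN2B. JAML, a junctional adhesion gene, shared 1. The TTC36 fragment was called with 7 fragments in all.

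The body of SCN4B was contacted 13 times by promoter fragments of other genes and that of SCN2B 5 times. Of 6 annotated starts of SCN4B, 4 lie outside its promoter fragment, as do 2 of the 4 of SCN2B. All of these lie in fragments listed in the calls, so a contacted body fragment can itself hold a start. The promoter fragment of CD3D and CD3G was called with an intronic fragment of SCN4B (chr11:118008416-118009470), 202 kb away, at 5.19, 5.86 and 7.33 in replicates 1 to 3 (mean 6.13 ± 1.09, SD, n = 3). This was the single contact of the SCN4B body present in every replicate. The same intronic fragment was called in 2 replicates with UBE4A (5.92 and 7.27) and with TTC36 (5.20 and 6.52). Further contacts of the SCN4B body came from promoter fragments of TMEM25 and of ARCN1 with IFT46, which lie beyond TTC36, and from DSCAML1 on the opposite side, the last in replicate 2 alone at 5.26. All 5 contacts of the SCN2B body were called in 1 replicate each. Calls on the merged replicates alone joined the SCN4B promoter fragment to that of CD3D and CD3G (5.33), and the SCN2B promoter fragment to those of TMEM25 (5.55) and DSCAML1 (5.30).

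**Figure D3:**
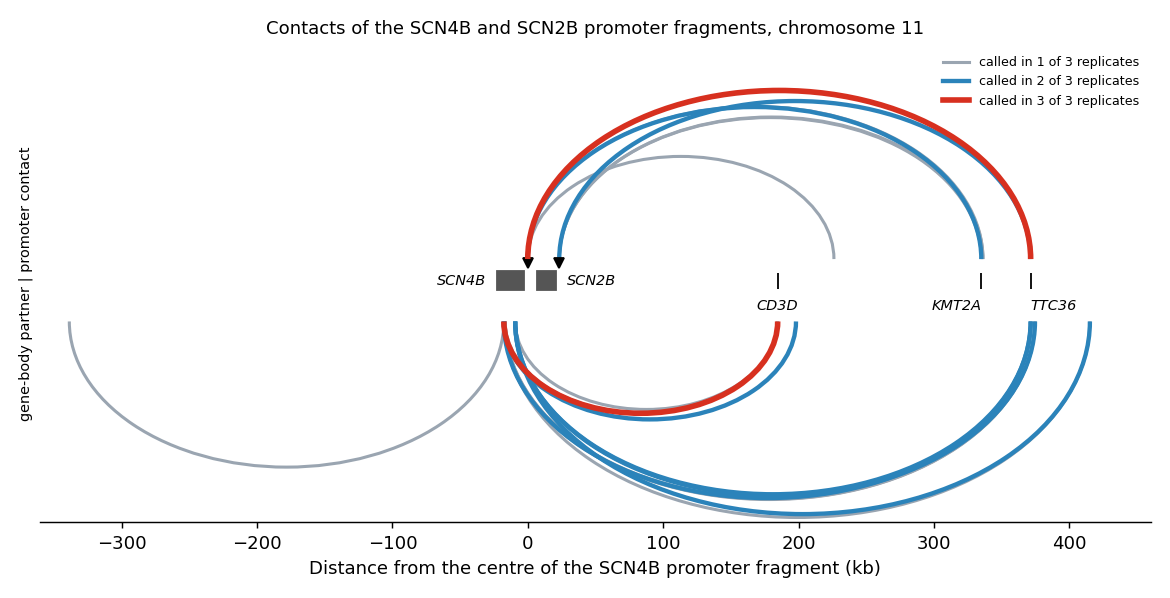
Arcs above the line join the SCN4B and SCN2B promoter fragments (triangles) to their partners, and arcs below join other promoter fragments to the body of SCN4B, by distance in kb from the SCN4B promoter fragment, with colour and width for the number of replicates. Arc height follows distance and is not a measurement. Both promoters reach KMT2A and TTC36, and the single red arc above the line joins SCN4B to TTC36.

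SCN3B, on the minus strand at chr11:123499895-123525952, had the least repeatable contacts. Its promoter fragment (chr11:123524080-123526183) had 5 partners, none called in more than 1 replicate and none listed on the merged replicates. Replicate 1 called a fragment outside genes, 707 bp from FAM76B and 28.0 Mb away (7.30). Replicate 2 called a fragment between CCDC179 and LUZP2, 99.8 Mb away (6.49), and an intronic fragment of LGR4, an R-spondin receptor gene, 96.1 Mb away (5.05). Replicate 3 called an intronic fragment of a non-coding RNA gene 26.9 Mb away (6.70) and, 381 kb upstream, a promoter fragment over the olfactory receptor gene OR10G7 (chr11:123901823-123910232). That last contact scored 9.13, the highest value of a sodium channel promoter contact in a single replicate, and was not listed on the merged replicates, where 2 contacts of other members scored above it. The OR10G7 fragment was called with 24 fragments in all. No other promoter fragment shared more than 1 of the 5 partners of SCN3B. By summed score of the shared partner, those of LNCRNA-IUR, OR8B12 and OR8B8 came first. Apart from its promoter fragment, no fragment in the body of SCN3B was called with any promoter fragment in any replicate.

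**Figure D4:**
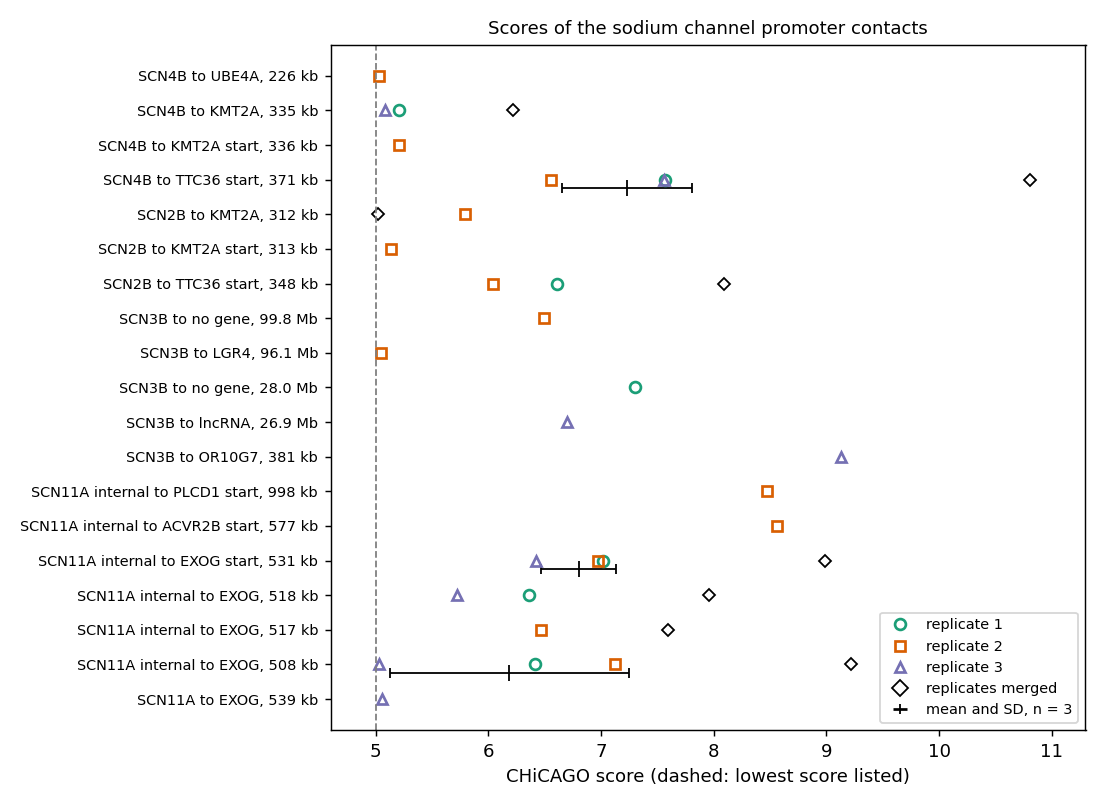
CHiCAGO score (x axis) of each contact (y axis) in replicates 1, 2 and 3 and on the merged replicates, with the mean and SD of contacts called in all 3 replicates below the points. A missing symbol means a score under 5, the dashed line. The contacts called in 3 replicates are those of SCN4B with TTC36 and of the internal SCN11A fragment with 2 EXOG fragments, and those of SCN3B have 1 symbol each. The contact at 5.94 is left out.

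Related gene lists were measured in the same way. Of 7 other alpha subunit genes, 5 had a promoter fragment, and 20 of their 43 interactions (46.5%) were called in all 3 replicates. These 20 came from SCN2A and SCN3A, neighbouring neuronal alpha subunit genes, with 13 of 23 and 7 of 13 interactions in all 3 replicates. SCN4A, the skeletal muscle alpha subunit gene, had 4 interactions, SCN8A had 2 and SCN7A had 1, none of them in all 3 replicates. Of 13 genes for proteins that bind or regulate sodium channels, 12 had a promoter fragment, and 13 of their 74 interactions (17.6%) were called in all 3, over 5 genes. DLG1, a scaffold gene, had the most of these (7 of 14), while SLMAP had 1 interaction, in replicate 2 alone. CAV3, a muscle caveolin gene, held 29 of the 74 interactions with 2 in all 3 replicates, and the other genes of the list had 11 of 45 (24.4%). Beside 15.0% for the sodium channel genes followed here and 23.9% for all interactions, these shares are descriptions of lists and were not tested.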

How the data were processed

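The data were deposited PCHi-C calls of hESC-CMs, in 3 replicate sets and a merged set. The authors mapped reads with HiCUP to GRCh37 and called interactions with CHiCAGO, and the values deposited for each pair of HindIII fragments are CHiCAGO scores. Only pairs scoring at least 5 are listed, so weaker contacts and read depth could not be measured.

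All 127138 fragments compared with the reference had both ends at a HindIII site of GRCh37. Transcript starts came from GENCODE 44 lifted to GRCh37. The union of the replicates was the main set, an interaction being the same when both fragments had equal coordinates, and distances ran between midpoints. Intervals are 95% Wilson intervals. Python 3.11.15, scipy 1.17.1, bedtools 2.31.1 and matplotlib 3.10.9 were used. Counting was tested on 1200 simulated interactions of 200 promoter fragments with 6 partners each, of which 33.3% were made common to all replicates and 33.3% were recovered.

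Members, gene lists and motifs were chosen with earlier results of these data known. For each promoter fragment, the partners named were up to 5 with the highest mean score, every promoter partner, and the nearest and farthest, all among those called in all 3 replicates, or, where under 3 partners were, all those in at least 2. The most closely sharing promoters were added, up to 3. Partners called in 1 replicate were named after their values were seen. A few genes and contacts are not reported here. No repeat annotation was used. Alternatives were score thresholds of 7 and 10, each replicate left out, the merged calls, column 1 only, protein-coding starts, at most 1 Mb, and matching within 5 kb.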

Additional observations from a re-analysis of the deposited data

How the results depend on the processing

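The number of interactions of the sodium channel promoters fell from 20 to 7 at a score of at least 7 and to 0 at a score of at least 10, was 13 on the merged calls and 13 with protein-coding starts only, where the internal SCN11A fragment is lost, and ran from 10 to 19 with 1 replicate left out. The share called in all 3 replicates was 0.00% at a score of at least 7 and 15.8 to 50% with 1 replicate left out, where 2 replicates had to list a contact. It stayed inside the interval of the main value with the promoter listed first only (13.3%), protein-coding starts only (7.69%), at most 1 Mb (18.75%) and matching within 5 kb (35.0%). The median distance of 513 kb was 371 kb on the merged calls, which list no SCN3B contact, and 508 to 513 kb with 1 replicate left out. The 3 contacts called in every replicate scored 8.99 to 10.81 on the merged calls, more than 1 SD above their means. Their means kept within 1 SD with any replicate left out, which holds for any 3 values and so says nothing on stability. No paired analysis was possible because there is a single group. Pairs scoring under 5 are not listed, which limits every statement on a missing contact.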
